A study of Mus musculus with 4 samples.

Results

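The genes described here handle amino acid supply and the response to its shortage: targets and partners of the transcription factor ATF4, amino acid transporters, the serine and one-carbon enzymes, and aminoacyl-tRNA synthetases. They are a list of 39 gene names set by function, chosen with earlier results of these data known. Of these, 38 have a probe set that carries their symbol alone, of 18193 genes so named on the array. The exception is Pycr1, a proline synthesis enzyme, which is not analysed here. RNA came from CD4 T cells of miR-146a-deficient 2D2 transgenic mice (2 arrays) and of wildtype 2D2 transgenic mice (2 arrays), hybridised to Affymetrix mouse whole-genome arrays. All mice carry the 2D2 transgene, a T cell receptor specific for a myelin oligodendrocyte glycoprotein peptide, and the groups differ in whether the microRNA miR-146a is present. Sorted naive cells, 1000000 to a well, were stimulated for 3 days with plate-bound anti-CD3 at 5 µg/ml and with anti-CD28 at 1 µg/ml, which one label calls plate-bound and another soluble. The labels call each sample a biological replicate but give no age and do not say whether replicates came from separate mice, so p-values measure only the spread between these samples, which may be technical.

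When amino acids run short, uncharged tRNA activates the kinase GCN2, which phosphorylates the initiation factor eIF2. General translation falls, while translation of the Atf4 mRNA goes up, so the Atf4 transcript level is not a measure of ATF4 protein. ATF4, often paired with a C/EBP protein, then raises transcription of genes that import, make and charge amino acids, and stimulated T cells, which grow and divide fast, are known to induce many of the same genes through mTORC1 and Myc. miR-146a is a microRNA known for restraining NF-kB signalling, and the comparison asks which of these transcripts differ in its absence.

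The mature microRNA that the deficient cells lack is shown first, from RefSeq on GRCm38.p6, where it lies at chr11:43374435-43374456 on the minus strand, with its seed (bases 2 to 8) in capitals, since it defines the groups.
mmu-miR-146a-5p: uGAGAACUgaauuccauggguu
Its gene has no named probe set among those analysed, and the loss of the microRNA was therefore not measured.

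A feature the gene list did not use as such is the core of the C/EBP-ATF response element, the DNA word through which ATF4 and its C/EBP partners are known to act. The core was searched as TGATGNAA on both strands (TTNCATCA on the other) in RefSeq windows of GRCm38.p6 from 250 bases before to 50 bases after each annotated start. Of the 38 genes, 32 have a window, and 11 of these (34.4%) hold the core, against 301 of 10373 tested genes with a window (2.90%) and 1219 of all 27025 genes with a window (4.51%). It was found in 4 of 7 tRNA synthetase genes, in 4 of 9 stress regulators and in 0 of 8 serine and one-carbon genes. Since many of the genes were listed as known ATF4 targets, these shares are a description, and a match is not evidence of binding. The stretches below show the core in capitals, read along the gene's own strand, for 2 stress regulators, Asns, 2 transporters and 2 synthetases, so that the shared word can be seen.
Chac1, chr2:119351039-119351066, strand +: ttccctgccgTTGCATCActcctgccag
Trib3, chr2:152344029-152344056, strand -: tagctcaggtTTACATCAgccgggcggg
Asns, chr6:7693215-7693242, strand -: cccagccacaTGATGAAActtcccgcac
Slc7a11, chr3:50443662-50443689, strand -: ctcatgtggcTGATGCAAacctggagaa
Slc7a11, chr3:50443643-50443670, strand -: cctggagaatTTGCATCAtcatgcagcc
Slc1a4, chr11:20332700-20332727, strand -: gcctcctgcgTTGCATCAtctccagcct
Tars, chr15:11399656-11399683, strand -: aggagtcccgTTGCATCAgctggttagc
Iars, chr13:49682127-49682154, strand +: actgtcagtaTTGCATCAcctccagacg
The core starts 23 bases before the annotated start in Asns, 193 in Chac1 and 4 in Slc1a4, and is base 15 of the transcript in Trib3 and base 8 in Iars. Slc7a11 holds it in both orientations, in 2 stretches that overlap. The other genes with a core are Nupr1, Vldlr, Aars and Gars.

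The values are MAS5 signals, deposited with the same 2% trimmed mean on every array, and the median signal ran from 48.7 to 51.4 in the deficient and from 50.2 to 57.7 in the wildtype arrays. Signals of different probe sets are not comparable, so levels are compared only within a gene, and the number of arrays limits the precision. The labelled cell type was checked with Cd3d, a chain of the T cell receptor complex, which read 17382 and 17664 in the deficient and 16065 and 17736 in the wildtype arrays. Cd4 read 462 and 725 in the deficient and 605 and 655 in the wildtype arrays, and none of the 11 tested T cell markers passed the test. Most markers of B and plasma cells were higher in the deficient arrays, and 5 of 14 tested passed. The summed signal of the 15 with a probe set was 19614 and 19920.0 in the deficient arrays, against 6528 and 9151 in the wildtype arrays. Ms4a1, which encodes CD20, read 838 and 1150.2 in the deficient and 167 and 228 in the wildtype arrays. No B or plasma cell marker was listed at 0, and most of the sum is Ighm and Mzb1. Sdc1 went the other way without passing, at 225 and 282 in the deficient and 398 and 349 in the wildtype arrays. Pax5, below the filter, read 11.3 and 21.9 in the deficient and 68.9 and 23.9 in the wildtype arrays. The other tested markers of the list were above 0 (log2, deficient minus wildtype). Dendritic cell markers (3 of 9 tested) and macrophage markers (2 of 8) also had members that passed as higher. These were Ccl22, H2-Aa and H2-Eb1, and Cybb and Ly86. The medians of these lists were 0.25 and 0.024, and Itgax, Flt3, Xcr1, Siglech, Cd14 and Itgam lay below the filter. Other markers of these lists lay below 0 without passing, such as Lyz2 at -0.52, Adgre1 at -0.47 and Cd209a at -0.29 (log2, deficient minus wildtype). The 4 tested NK cell markers had a median of 0.52 and the 3 tested CD8 T cell markers one of 0.23, with none passing. The ratio of 3' to 5' signal for Gapdh, a sign of RNA quality, was 0.746 and 0.778 in the deficient and 0.778 and 0.808 in the wildtype arrays. For the transferrin receptor it was 1.92 and 2.23 in the deficient and 2.40 and 2.74 in the wildtype arrays, without overlap. The part of these other cells and of RNA quality in the values below was not tested.

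None of the 38 amino acid and ATF4 response genes passed the test between miR-146a-deficient and wildtype cells at an adjusted p of 0.05 in limma, over all 12819 tested genes. Among all tested genes 0.179% passed (0.172% higher and 0.0078% lower), so a count of 0 among 38 is near that background. At an unadjusted p below 0.05, 2 of the 38 genes stood lower (Slc1a5 and Trib3) and 0 higher, beside 5.25% of all tested genes, 2.42% lower and 2.83% higher. Unless called a signal or given per array, the values that follow are differences of log2(signal + 14.7), deficient minus wildtype, with the standard error of the fit and 2 arrays a group. Differences ran from -0.36 (Atf5) to 0.27 (Sesn2), with a median of -0.044, beside -0.011 over all tested genes. Of the 38, 26 were negative and 12 positive, beside 6732 negative and 6087 positive among all tested genes. The deficient arrays both lay below both wildtype arrays in 8 of 38 genes (background 17.7%) and above them in 4 (background 15.9%). At a mean signal of at least 1000, 23 of 33 response genes were negative and 10 positive. Of 4347 tested genes as bright, 1966 were negative and 2381 positive, and the medians were -0.043 and 0.013. Both deficient arrays lay below in 7 and above in 3 of the 33, beside 569 and 843 of the 4347. These counts were not tested. In whole-cell RNA of this kind, fewer cells of a type and less RNA per cell cannot be told apart.

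The intervals of the fit bounded many of these differences. They draw most of their 8.57 degrees of freedom from genes of like brightness, and 2 from the arrays. A gene whose replicates differ more than such genes may therefore have too narrow an interval. The 95% interval of the difference lay inside a 1.5-fold change in either direction for 34 of 38 genes, and inside a 1.25-fold change for 20. The corresponding counts over all tested genes were 7340 and 2405 of 12819. Most of the 38 genes are bright, and at a mean signal of at least 1000 the counts were 31 and 20 of 33 response genes, beside 4168 and 2166 of 4347 tested genes. The 4 genes with wider intervals were Atf5, Ddit3, Sesn2 and Slc7a11, and for these a 1.5-fold difference was not excluded. Vldlr lay inside by a very small margin, with an interval from 0.667-fold to 1.36-fold. Such intervals hold for the arrays measured and are not a test that the genotypes are alike.

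**Figure D1:**
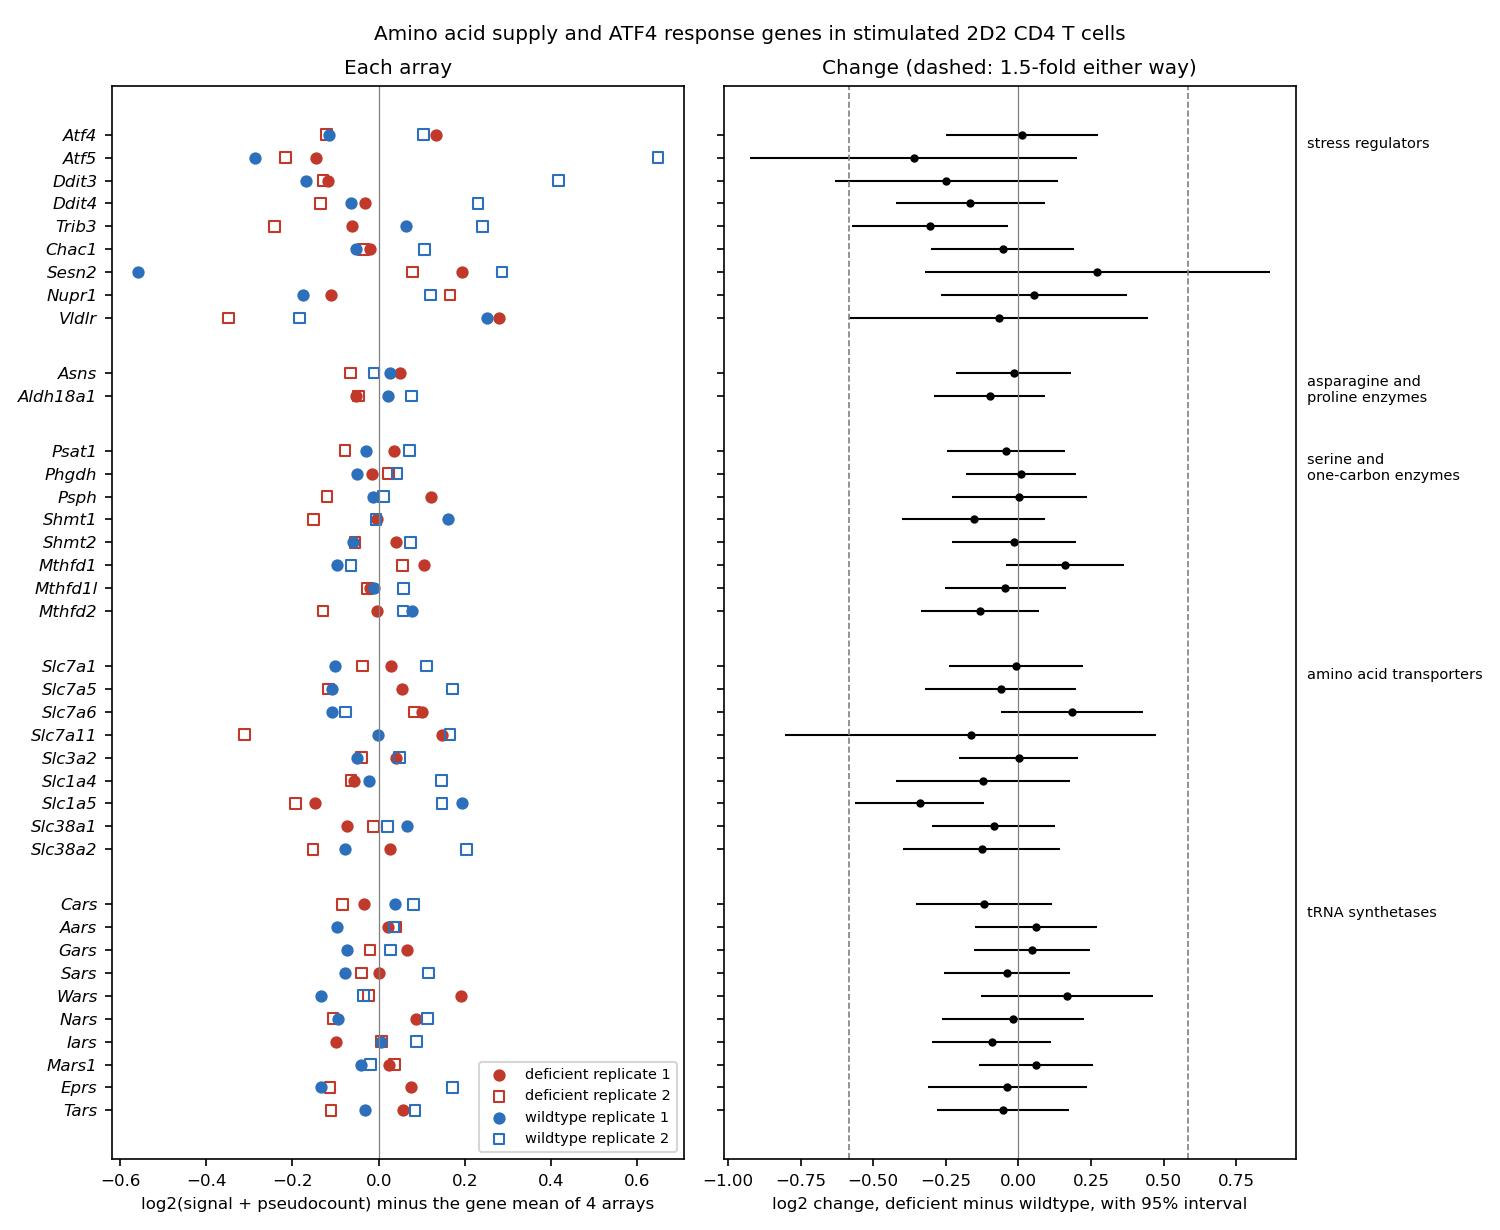
Left, log2(signal + pseudocount) of each array minus the gene's mean over 4 arrays, with deficient arrays in red and wildtype arrays in blue (filled circles replicate 1, open squares replicate 2). Right, the change, deficient minus wildtype, with its 95% interval from the limma fit. No gene passed the adjusted p of 0.05, and 34 of 38 intervals lie between the dashed lines at 1.5-fold.

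Among the 9 stress regulators, 6 differences were negative and 3 positive, with a median of -0.069 and none past the test. Atf4, the transcription factor at the centre of the response, had 13439 and 11272 in the deficient arrays, against 11321 and 13175 in the wildtype arrays. The groups overlapped fully, with the lowest and the highest value both in deficient cells, and the difference was 0.011 ± 0.11 (adjusted p = 0.998). Its interval ran from -0.25 to 0.27, equal to 0.840-fold to 1.21-fold. Trib3, a pseudokinase that ATF4 induces and that feeds back on it, had 1519 and 1339.6 in the deficient arrays, against 1659 and 1877 in the wildtype arrays. Both deficient values were below both wildtype values, and the difference of -0.30 ± 0.12 did not pass over all genes (adjusted p = 0.895). Its dimmer probe set gave -0.29, and leaving out 1 array gave -0.39 to -0.21.

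Atf5, a related factor that is itself induced in amino acid stress, had 1504 and 1429.9 in the deficient arrays, against 1361 and 2616 in the wildtype arrays. Wildtype replicate 2 stood apart from the other 3 arrays, and the difference was -0.36 ± 0.25 (adjusted p = 0.971). Without wildtype replicate 1 it was -0.83 and passed (adjusted p = 0.00158), with 1 wildtype array left that is assumed to vary like the deficient pair, while without wildtype replicate 2 it was 0.11. Ddit3, which encodes the stress factor CHOP, showed the same order, with 2837 and 2815 in the deficient arrays, against 2738 and 4119 in the wildtype arrays. Its difference was -0.25 ± 0.17 (adjusted p = 0.971) over 4 arrays, -0.54 without wildtype replicate 1 (adjusted p = 0.039) and 0.045 without wildtype replicate 2. With the mean of its probe sets, which differ, it was -0.51 (adjusted p = 0.716). Ddit4, an inhibitor of mTORC1 also known as REDD1, had 8319.7 and 7740.3 in the deficient arrays, against 8127 and 9972 in the wildtype arrays, again highest in wildtype replicate 2, with a difference of -0.17 ± 0.11 (adjusted p = 0.971). It was -0.31 without wildtype replicate 1 (adjusted p = 0.338) and -0.018 without wildtype replicate 2. Sesn2, which encodes the leucine sensor Sestrin2, had 329 and 302 in the deficient arrays, against 189 and 352 in the wildtype arrays, so the wildtype pair spanned the deficient values. Its difference was 0.27 ± 0.26 (adjusted p = 0.975), and its other probe set gave -0.27, the opposite sign.

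The remaining stress genes had smaller differences. Chac1, a glutathione-degrading enzyme induced by ATF4, had 1515 and 1499.9 in the deficient arrays, against 1482 and 1655 in the wildtype arrays, with a difference of -0.055 ± 0.11 (adjusted p = 0.989). Nupr1, a small stress-induced nuclear protein, averaged 1633 ± 223 in deficient and 1573 ± 229 in wildtype cells (SD, n = 2 each), and Vldlr, a lipoprotein receptor on the list as an ATF4 target, 522 ± 163 in deficient and 541 ± 118 in wildtype cells. Their differences were 0.054 ± 0.14 and -0.069 ± 0.23, each with overlapping arrays.

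The amide and proline enzymes were close in both genotypes. Asns, which makes asparagine from aspartate and is a standard readout of ATF4, had 11673 and 10774 in the deficient arrays, against 11489 and 11195 in the wildtype arrays. The 2 groups overlapped, with a difference of -0.016 ± 0.087 (adjusted p = 0.996) and an interval from -0.21 to 0.18. Aldh18a1, which starts proline synthesis from glutamate, had 9202 and 9230.5 in the deficient arrays, against 9688 and 10058 in the wildtype arrays. The deficient values both lay below the wildtype ones, with a difference of -0.10 ± 0.084 (adjusted p = 0.973).

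The 8 serine and one-carbon enzymes had the narrowest standard errors of the larger groups, from 0.083 to 0.11, and differences from -0.15 to 0.16 with a median of -0.029. Phgdh, the first enzyme of serine synthesis from glycolysis, had 24714 and 25360.0 in the deficient arrays, against 24104 and 25715 in the wildtype arrays. The deficient pair fell between the wildtype values, and the difference was 0.0080 ± 0.083 (adjusted p = 0.998), with an interval from 0.881-fold to 1.15-fold. Psat1, the second enzyme of that route, had 13316 and 12312 in the deficient arrays, against 12737 and 13659 in the wildtype arrays, and the difference was -0.043 ± 0.089 (adjusted p = 0.989). Psph, the phosphatase that completes it, had 9371 and 7918 in the deficient arrays, against 8526 and 8676 in the wildtype arrays, and here the wildtype pair fell between the deficient values, with a difference of 0.0023 ± 0.10 (adjusted p = 0.999).

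Downstream of serine, the cytosolic and mitochondrial folate enzymes pass its carbon to one-carbon units for nucleotide synthesis. Mthfd1, the cytosolic trifunctional enzyme, was the one gene of this group with both deficient arrays above both wildtype arrays, at 4229.9 and 4089 in the deficient arrays, against 3680.0 and 3762 in the wildtype arrays. Its difference of 0.16 ± 0.090 did not pass (adjusted p = 0.960), and with the mean of its probe sets it was -0.012. Mthfd2, the mitochondrial dehydrogenase that activated lymphocytes are known to induce, stood the other way, at 8517 and 7808 in the deficient arrays, against 9008 and 8879.6 in the wildtype arrays, with a difference of -0.13 ± 0.089 (adjusted p = 0.971). Its second probe set gave 0.039. Mthfd1l, the mitochondrial synthetase, averaged 3509.7 ± 11.5 in deficient and 3624 ± 123 in wildtype cells, with a difference of -0.046 ± 0.091. The serine hydroxymethyltransferases Shmt1 (cytosolic) and Shmt2 (mitochondrial) differed by -0.15 ± 0.11 and -0.015 ± 0.093. The other probe sets of Shmt1 gave -0.20, -0.18 and -0.33, and those of Shmt2 gave -0.15, -0.15 and 0.31. Shmt1 averaged 2443 ± 179 in deficient and 2722 ± 224 in wildtype cells, and Shmt2 averaged 6506 ± 303 in deficient and 6577 ± 431 in wildtype cells.

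Of the 9 amino acid transporters, 7 had negative and 2 positive differences, with a median of -0.085. Slc1a5, which encodes the glutamine and neutral amino acid carrier ASCT2, had the smallest p of the 38 genes. Its signal was 1953 and 1893 in the deficient arrays, against 2478 and 2399 in the wildtype arrays. The pairs were tight and did not overlap, and the difference was -0.34 ± 0.10, 0.790-fold, with an interval from 0.678-fold to 0.921-fold. It did not pass over all genes (adjusted p = 0.545), and across the 4 fits that leave out 1 array it lay between -0.36 and -0.32, with a smallest adjusted p of 0.433. Its other probe set, near background at 52.8 and 66.9 in the deficient and 58.7 and 44.8 in the wildtype arrays, gave 0.17, and with the mean of both the difference was -0.087 (adjusted p = 0.969).

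Slc7a5 and Slc3a2 encode the light and heavy chains of the large neutral amino acid transporter, through which T cells take up leucine and methionine. Slc7a5 had 9819.8 and 8727 in the deficient arrays, against 8769.8 and 10648 in the wildtype arrays, and the deficient pair fell within the wildtype range except at its lower end, with a difference of -0.062 ± 0.11 (adjusted p = 0.989). Slc3a2 had 6547 and 6196 in the deficient arrays, against 6152 and 6587 in the wildtype arrays, a difference of 0.00076 ± 0.090 with an interval from 0.868-fold to 1.15-fold. Slc7a1, the cationic carrier for arginine and lysine, had 6300.1 and 6011 in the deficient arrays, against 5748 and 6665 in the wildtype arrays, so that the deficient pair again fell between the wildtype values, with a difference of -0.0083 ± 0.10 (adjusted p = 0.999). With the mean of its probe sets it was -0.29 (adjusted p = 0.872). That mean takes in a probe set below the filter that gave -0.94, while its other probe set past the filter gave 0.092.

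Slc7a6, a second light chain partner of Slc3a2, was the one transporter with both deficient arrays above both wildtype arrays, at 1242 and 1225 in the deficient arrays, against 1072 and 1096 in the wildtype arrays, and a difference of 0.18 ± 0.11 (adjusted p = 0.964). Its second probe set gave 0.17. Slc38a1 and Slc38a2, sodium-coupled neutral amino acid carriers that take up glutamine, differed by -0.085 ± 0.093 and -0.13 ± 0.12. Slc38a1 averaged 3071 ± 92.6 in deficient and 3258 ± 70.9 in wildtype cells without overlap, and Slc38a2 averaged 4663 ± 409 in deficient and 5107 ± 706 in wildtype cells with overlap. Slc1a4, a carrier for serine and alanine, had 596 and 593 in the deficient arrays, against 611 and 688 in the wildtype arrays, and differed by -0.12 ± 0.13. Slc7a11, the cystine importer and an ATF4 target, was dim, at 105 and 72.7 in the deficient arrays, against 93.6 and 107 in the wildtype arrays, and its interval from 0.573-fold to 1.39-fold was wide.

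The 10 aminoacyl-tRNA synthetases, which load amino acids onto their tRNAs, had differences from -0.12 to 0.17 with a median of -0.029, 4 positive and 6 negative. All 10 intervals lay inside a 1.5-fold change, and 8 inside a 1.25-fold change. Gars, for glycine, had 11917 and 11228 in the deficient arrays, against 10816 and 11606 in the wildtype arrays, with a difference of 0.046 ± 0.088 (adjusted p = 0.989). Nars, for asparagine, had 11110.2 and 9725 in the deficient arrays, against 9806 and 11322 in the wildtype arrays, and Sars, for serine, had 9051 and 8799 in the deficient arrays, against 8575 and 9804 in the wildtype arrays. In all 3 the pairs overlapped, and Nars and Sars differed by -0.020 ± 0.11 and -0.039 ± 0.10.

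Cars, for cysteine, lay lower in both deficient arrays, at 1481 and 1431 in the deficient arrays, against 1556 and 1605 in the wildtype arrays, with a difference of -0.12 ± 0.10 (adjusted p = 0.974). Wars, for tryptophan, and Mars1, for methionine, lay higher in both, at 841 ± 89.7 in deficient and 745 ± 36.4 in wildtype cells for Wars and 5613 ± 37.2 in deficient and 5384 ± 62.0 in wildtype cells for Mars1, with differences of 0.17 ± 0.13 and 0.060 ± 0.086 that did not pass (adjusted p = 0.971 and 0.984). Wars is also known as an interferon-gamma induced gene. Its 3 other probe sets gave -0.050, 0.066 and -0.017. Aars (alanine), Iars (isoleucine), Eprs (glutamate and proline) and Tars (threonine) differed by 0.060 ± 0.093, -0.093 ± 0.089, -0.038 ± 0.12 and -0.053 ± 0.10. Their deficient arrays averaged 4845, 8057, 7253 and 4560.4, against 4650.2, 8590.2, 7473 and 4728 in the wildtype arrays, with overlap in each. The 3 other Eprs probe sets gave -0.23, -0.27 and -0.56, and with the mean of its probe sets Eprs differed by -0.27 (adjusted p = 0.816).

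The brightest probe sets of these genes shared an order between replicate arrays of the same genotype. Wildtype replicate 2 had the highest signal of the 4 arrays in 23 of 38 genes (60.5%) and the lowest in 0, beside 27.3% and 23.8% of all tested genes. It stood above wildtype replicate 1 in 32 of 38 genes, by a median of 0.11 on the log2 scale, beside 50.8% and a median of 0.0054 over all tested genes. The largest gaps were in Atf5 (0.94), Sesn2 (0.84) and Ddit3 (0.59). In their brightest probe sets, all 10 synthetases and 8 of 9 stress regulators went the same way. The 6 genes whose brightest probe set did not were Vldlr, Asns, Shmt1, Mthfd2, Slc1a5 and Slc38a1. The 46 other probe sets of the same genes past the filter went both ways and did not share this order. Wildtype replicate 2 lay below wildtype replicate 1 in more of them than it lay above. Those of Shmt1 and Vldlr were all lower in wildtype replicate 2. The second Atf4 probe set was lower in wildtype replicate 2 (7873 and 5931 in replicates 1 and 2), and that of Sars higher (7251 and 8653). Other probe sets of Cars, Eprs, Iars and Wars were also lower in wildtype replicate 2, and those of Aars and Nars higher. In the deficient pair, replicate 2 stood below replicate 1 in 31 of 38, with a median difference of -0.082, beside 51.2% of all tested genes. The lowest of the 4 arrays was deficient replicate 2 in 18 genes and wildtype replicate 1 in 17.

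The order was also read among bright genes alone. Among the 4347 tested genes with a mean signal of at least 1000, wildtype replicate 2 was above replicate 1 in 58.6% and the highest array in 29.3%, beside 84.8% and 60.6% of the 33 response genes as bright. The genes are not independent of each other, so these shares describe the arrays and carry no test. The mean log2 signal of the 38 genes was 11.85 and 11.76 in the deficient and 11.78 and 11.93 in the wildtype arrays. The pairs overlap, and the pooled SD within genotypes was 0.091. The 3' to 5' ratios of Gapdh and the transferrin receptor were highest in wildtype replicate 2. That of beta-actin was 1.14 and 1.25 in the deficient and 1.17 and 1.30 in the wildtype arrays. In the deficient pair, the ratios of Gapdh (0.746 and 0.778), the transferrin receptor (1.92 and 2.23) and beta-actin rose from replicate 1 to replicate 2. Most of the 38 genes fell between those same arrays. Whether RNA quality has a part in the order of the arrays was not tested.

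**Figure D2:**
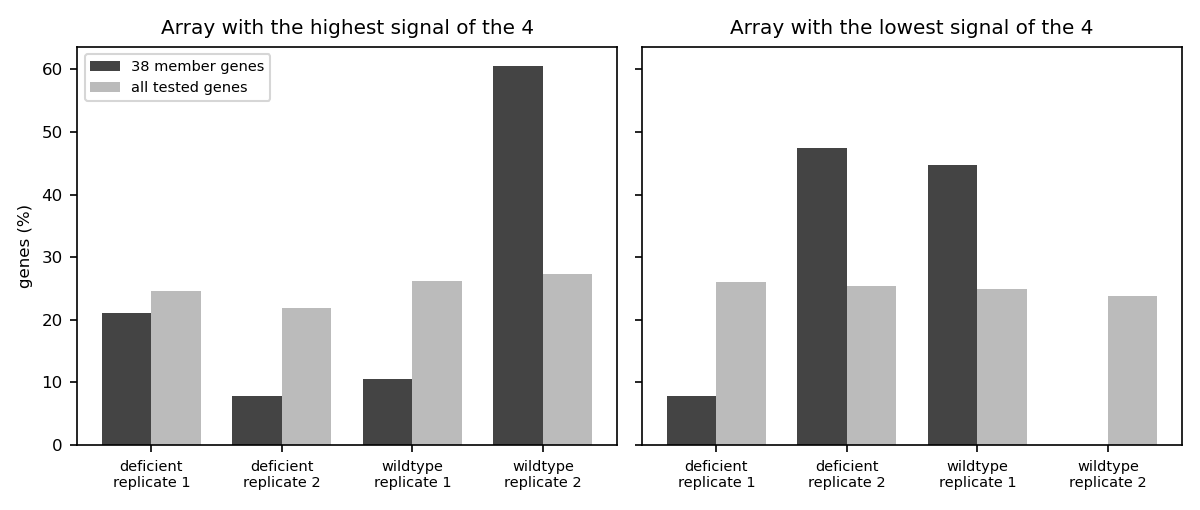
Share of genes (%) for which each of the 4 arrays has the highest signal (left) or the lowest (right), for the 38 response genes (dark bars) and all tested genes (light bars). Each gene is shown by its brightest probe set. Wildtype replicate 2 is highest in 60.5% of the response genes and lowest in none, while the arrays share all tested genes about evenly.

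Other probe sets of the same genes were also read. Of the 38 genes, 28 have more than 1 probe set, and 46 further probe sets passed the filter, 30 with a negative and 16 with a positive difference. Their median was -0.084, beside -0.025 over the 22809 named probe sets past the filter, and 17 had the opposite sign to the brightest probe set of their gene. The lowest of them, -0.78, was a dim Ddit3 probe set at 40.9 and 31.7 in the deficient and 62.8 and 82.9 in the wildtype arrays, whose pairs did not overlap. Another dim one, for Aldh18a1, gave -0.64, where its 4 brighter probe sets lay between -0.10 and 0.010. These extra probe sets were not tested.

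**Figure D3:**
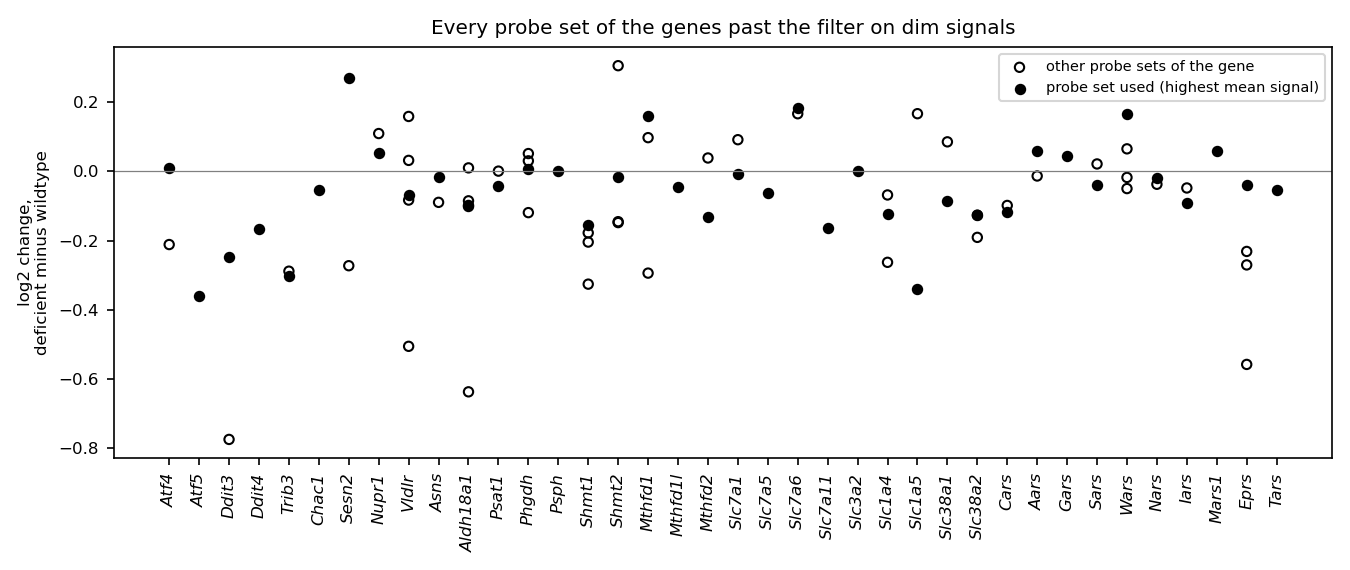
Log2 change, deficient minus wildtype, of every probe set of the 38 genes that passed the filter on dim signals, with the probe set used filled and the others open. The open points run from -0.78 to 0.31.

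Related genes outside the 38 were read from the same fit. Of 113 tested genes on 7 lists, none passed the adjusted p of 0.05 in limma, and 6 had an unadjusted p below 0.05 (1 higher, 5 lower), beside the backgrounds given above. Their median difference was -0.033. The 14 other regulators of the response (4 eIF2 kinases, eIF2B and eIF2 phosphatase subunits, the GCN2 inhibitor Impact, and the transcription factors Cebpb, Cebpg, Atf3, Jdp2 and Nfe2l2) had a median of -0.053, 4 positive and 10 negative. The smallest p belonged to Eif2ak3, the endoplasmic reticulum stress kinase PERK, and Eif2ak2, the RNA-activated kinase PKR, with differences of 0.29 ± 0.14 (adjusted p = 0.953) and 0.38 ± 0.20 (adjusted p = 0.953). Eif2ak3 had 1138 and 900.5 in the deficient arrays, against 804 and 845 in the wildtype arrays, and Eif2ak2 had 279 and 229 in the deficient arrays, against 209.7 and 173 in the wildtype arrays, both without overlap. Eif2ak2 was the regulator with its lowest value in wildtype replicate 2. Wildtype replicate 2 stood above wildtype replicate 1 in 13 of these 14 regulators. The other lists did not all share that order, with 18 of 26 mTORC1 and Myc genes, 10 of 16 other transporters, 9 of 14 other ATF4 targets and amino acid enzymes, 8 of 15 other one-carbon enzymes, 6 of 12 other cytosolic synthetases and 5 of 16 mitochondrial synthetases. Over all 7 lists it was 69 of 113.

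Among 14 further ATF4 targets and amino acid enzymes, Stc2, a secreted stanniocalcin induced by ATF4, had 1246 and 1059 in the deficient arrays, against 1302 and 1994 in the wildtype arrays. The deficient values were below both wildtype values, with wildtype replicate 2 far above the rest, and the difference was -0.48 ± 0.19 (adjusted p = 0.904). Without wildtype replicate 1 it was -0.79 and passed (adjusted p = 0.00786), again with 1 wildtype array left, while without wildtype replicate 2 it was -0.18 (adjusted p = 0.947) and with the mean of its probe sets -0.25. Gpt2, the mitochondrial alanine transaminase, differed by -0.20 ± 0.12 (adjusted p = 0.964), also with its highest value in wildtype replicate 2 (2389.6). Of 16 other transporters, Slc43a1, a facilitative leucine carrier, had 289 and 260.2 in the deficient arrays, against 393 and 362 in the wildtype arrays, without overlap, and a difference of -0.44 ± 0.16 (adjusted p = 0.822). Slc1a1, a glutamate carrier, was near background at 8.95 and 25.2 in the deficient arrays, against 66.1 and 43.5 in the wildtype arrays, with a difference of -1.16 ± 0.46 (adjusted p = 0.917).

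In the methionine and folate cycles (15 tested), Mat2b, the regulatory subunit of methionine adenosyltransferase, had 1209 and 1289 in the deficient arrays, against 1531 and 1576 in the wildtype arrays, without overlap, and a difference of -0.31 ± 0.11 (adjusted p = 0.733). Mthfd2l, a paralog of Mthfd2, differed by -0.24 ± 0.16 (adjusted p = 0.971). The 12 other cytosolic synthetases and scaffold proteins had a median of 0.082, with Aimp2, a scaffold protein, at 0.17 ± 0.11 (adjusted p = 0.971). Yars, the tyrosine synthetase, differed by -0.28 ± 0.21 (adjusted p = 0.971). It had 2068 and 1234 in the deficient arrays, against 2038 and 1859 in the wildtype arrays. Its pairs overlapped, with deficient replicate 2 far below the rest. The 16 mitochondrial synthetases had a median of -0.044, with Aars2 at 0.39 ± 0.19 and Mars2 at -0.56 ± 0.29 (adjusted p = 0.953 for each). Mars2 was dim, at 64.9 and 50.6 in the deficient arrays, against 91.1 and 91.5 in the wildtype arrays. Among 26 genes of mTORC1 amino acid sensing and the Myc network, Lamtor3, part of the lysosomal scaffold for mTORC1, had 1866 and 1704 in the deficient arrays, against 1386 and 1443 in the wildtype arrays, without overlap, and a difference of 0.33 ± 0.11 (adjusted p = 0.666). Wdr24, a component of the GATOR2 complex, differed by -0.46 ± 0.19 (adjusted p = 0.917). Myc itself, which drives much of the amino acid transport of activated T cells, had 6498 and 6487 in the deficient arrays, against 6042 and 6336 in the wildtype arrays, with a difference of 0.069 ± 0.087 (adjusted p = 0.982), and was named after its values were seen.

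**Figure D4:**
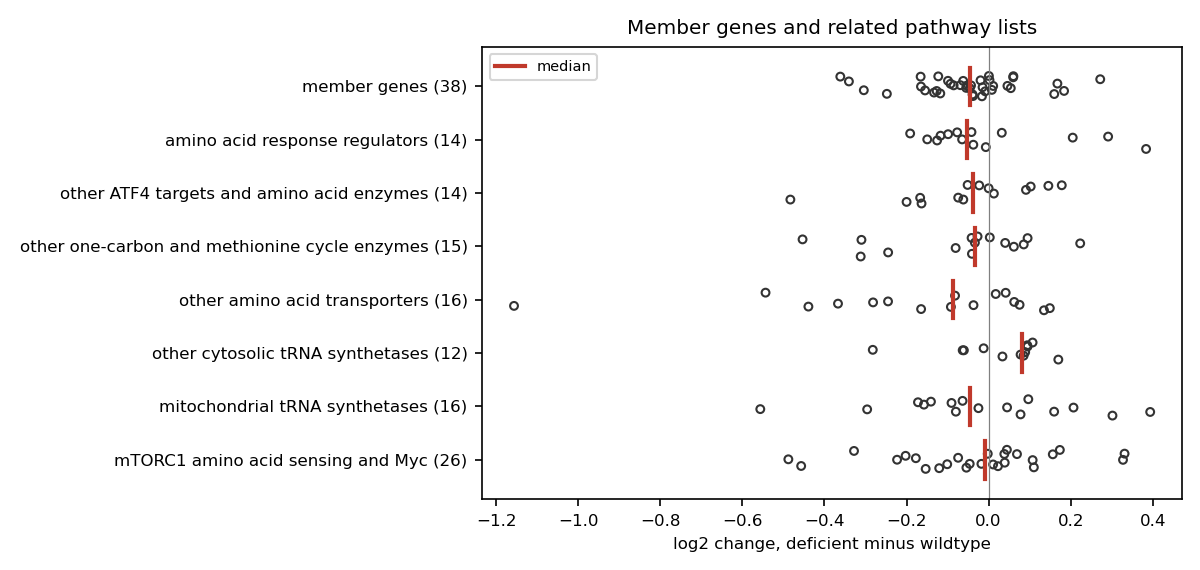
Log2 change, deficient minus wildtype, of each tested gene (points, spread vertically at random) and the median (red bars) for the 38 response genes and 7 related lists, with the number tested in brackets. The medians lie between -0.087 and 0.082, and no point passed the adjusted p of 0.05.

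The response element core in a promoter window was set beside the changes. The 11 genes with the core had a median difference of -0.055 (from -0.30 in Trib3 to 0.060 in Aars), and the 21 with a window but no core had -0.038 (from -0.36 in Atf5 to 0.27 in Sesn2). The spans overlap over most of their length. No test was made of these medians.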

How the data were processed

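RNA of CD4 T cells from 2 miR-146a-deficient and 2 wildtype samples, 100 ng each per the labels, was measured on 1-colour arrays. The authors deposited 1 linear intensity (signal) per probe set, made with MAS5 and the Transcriptome Analysis Console per the submitters' processing notes, which give no version. Each array has the same 2% trimmed mean, so the values were already scaled. Detection calls were not used here.

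Of 45101 probe sets, 64 controls were left out, and 34945 have 1 gene symbol, 932 several and 9160 none in the platform annotation. Probe sets with several or none were not named, and gene IDs of 34741 were found in GRCm38.p6, used for names. The probe set with the highest mean signal stood for each gene. Signals were taken as log2(signal + 14.7), the 25th percentile of all values, so differences of dim genes are understated. The 12819 genes tested had a mean log2 signal of at least 5.48 (a signal of 29.9), which is the 40th percentile of probe sets. limma 3.58.1 in R 4.3.3 (lmFit, eBayes with intensity trend) gave two-sided p-values, adjusted by Benjamini and Hochberg's method across the tested genes, on 8.57 degrees of freedom, 2 of them from the arrays. The fit was tested on simulated data.

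The members and lists were chosen with earlier results of these data known. Every member is named. Values in every array were given for members with an unadjusted p below 0.05 and up to 3 others per group with the highest signal. Full statistics were given for most of these. From each related list, up to 2 genes with the smallest p were given with difference, standard error and adjusted p, some with every array. Other members were shown in full after their values were seen. Alternatives covered pseudocount, filter, normalization, probe sets, variance prior, replicate number, each array and threshold. Python 3.11.15 with matplotlib 3.10.9 drew the figures.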

Additional observations from a re-analysis of the deposited data

How the results depend on the processing

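No member passed the adjusted p of 0.05 under either other pseudocount, no filter, a filter at the median, quantile normalization, median centring, the mean of probe sets, no intensity trend, replicate number as a block, or an adjusted p of 0.10. Leaving out 1 array gave between 0 and 2 members and between 0 and 1 of the related genes, the calls coming without wildtype replicate 1 (Atf5, Ddit3 and Stc2), where 1 wildtype array is left and is assumed to vary like the deficient pair. The median over the members stayed between -0.065 and -0.043 under the alternatives that keep 4 arrays, and ran from -0.11 to 0.035 when 1 array was left out, above 0 without wildtype replicate 2 or deficient replicate 2. Over all tested genes, the count of 23 became 2 with no filter, 14 with the mean of probe sets, 0 with no intensity trend (765 at an unadjusted p below 0.05), 40 at an adjusted p of 0.10, and 19 to 100 with 1 array left out. With the replicate block it was 14, and no member passed. The 2 replicate numbers share no stated origin, and same-numbered arrays deviated together with r = 0.0535, so the samples were not treated as paired. Some differences turned sign, none of them called over the 4 arrays. With the mean of probe sets this held for Atf4 (-0.12), Sesn2 (-0.00044), Phgdh (-0.0072), Mthfd1 (-0.012), Slc38a1 (0.00031), and with quantile normalization for Atf4 (-0.019), Phgdh (-0.037), Psph (-0.018), Slc3a2 (-0.027). With 1 array left out, 23 of 38 members turned sign at least once, with values from the lowest to the highest of -0.0055 to 0.13 (Aars), -0.074 to 0.042 (Asns), -0.12 to 0.14 (Atf4), -0.83 to 0.11 (Atf5), -0.13 to 0.025 (Chac1), -0.54 to 0.045 (Ddit3), -0.19 to 0.11 (Eprs), -0.0049 to 0.10 (Gars), -0.12 to 0.084 (Nars), -0.093 to 0.20 (Nupr1), -0.039 to 0.055 (Phgdh), -0.10 to 0.014 (Psat1), -0.12 to 0.12 (Psph), -0.14 to 0.058 (Sars), -0.15 to 0.69 (Sesn2), -0.081 to 0.052 (Shmt2), -0.27 to 0.014 (Slc38a2), -0.048 to 0.050 (Slc3a2), -0.11 to 0.10 (Slc7a1), -0.39 to 0.064 (Slc7a11), -0.20 to 0.078 (Slc7a5), -0.14 to 0.030 (Tars), -0.38 to 0.25 (Vldlr). The cause was not tested. The number of arrays limits all of these values.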
